A study of Mus musculus with 13 samples.

Results

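Complement genes were examined as a family of 9 members: Cfi, Cfb, C3, C2, C4b, C1qa, C1qb, C1qc and Cd55. They were taken by gene name from the 36282 distinct gene and transcript names printed on a mouse expression array. They were read by 10 of its 55681 probes, and all 9 passed the filter on dim probes. The 13 arrays hold bulk colorectal tissue of mice with the genotype CDX2P-NLS Cre;Apc+/loxP, called CPC-Apc, in which a Cre recombinase under a CDX2 promoter deletes a loxP-flanked Apc allele in cells that express it, and colorectal tumors arise spontaneously. Every mouse carried these alleles, in the controls too. Per the labels, mice were injected through the tail vein 24 times, 3 times per week from 8 weeks of age, with super carbonate apatite particles. The particles held either 25 µg of each of miR-200c, miR-302a to d, miR-369-3p and miR-369-5p, or a matching amount of a negative control microRNA. The groups were control normal tissue (2 arrays), control tumors (7), microRNA normal tissue (2) and microRNA tumors (2). The labels give this schedule for the study and name the control agent only by a short code on the control arrays, so they do not state that every control mouse received it. No label ties a sample to a mouse or says whether samples were pooled, so p-values measure the spread between these samples only.

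Complement is a cascade of plasma proteins and cell surface regulators that marks particles for uptake and forms pores in membranes. C1q, built from the chains of C1qa, C1qb and C1qc, starts the classical pathway by binding antibody and other ligands. C4 and C2 then form the classical C3 convertase, while C3 and factor B (Cfb) form that of the alternative pathway. Factor I (Cfi) cleaves C3b and C4b with the help of cofactors and so limits the cascade, and Cd55 speeds the decay of both convertases on the cell that carries it. The liver makes most circulating components, tissue macrophages make much of the C1q, and the intestinal epithelium and stroma make several components locally.

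The array measures each gene through a short oligonucleotide, and its position below is the one the array files give (assembly mm9). The first 30 bases of the 60-base probes are shown for Cfi and C2, whose differences passed a test below, for C4b, whose probe reads a near copy as well, and for C3, which has a pair of probes.
Cfi: ggctagtcctaaagtttcttccaagtttat
C2: tctctagtgtggatgacccgtgctcctttt
C4b: cctcactggattagaggctctgctctacag
C3, brighter probe: attcacagaatctatggtggtttatggttg
C3, dimmer probe: tgcagaaagggaagaagtacctcatgtggg
The Cfi probe lies at chr3:129578165-129578224 on the plus strand. The C2 probe lies at chr17:34999575-34999634 on the minus strand, close to those of Cfb (chr17:34993502-34993858, a stretch of 357 bases covered by a 60-base probe) and C4b (chr17:34865328-34865387). The files list a transcript of a second accession for the C4b probe, which the reference table names C4a, so C4b and C4a cannot be told apart here. The probes of C1qa, C1qb and C1qc lie together on chromosome 4, at chr4:136452409-136452468, chr4:136436578-136436637 and chr4:136445766-136445825. The C3 probes (chr17:57343416-57343475 and chr17:57343678-57343737) lie elsewhere on chromosome 17, and the Cd55 probe is at chr1:132335716-132335775. No exon annotation on mm9 was used here.

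Levels are log2 of the processed signal minus log2 of that array's 75th percentile, so 0 is the 75th percentile of all non-control spots. They compare arrays for 1 gene and not genes with each other. Differences were tested with limma over all 25468 genes that passed the filter, with Benjamini-Hochberg adjustment, and an adjusted p under 0.05 was called. An array had 50.7% to 57% of its probes well above background. Normal tissue (4 arrays) had a 75th percentile of 214 to 320 and tumors (9 arrays) one of 415 to 740, so array brightness moved with tissue, and its part in the results was not tested. Without scaling between arrays, the median gene was higher in control tumors than in control normal tissue by 0.96, against -0.09 with scaling, and 96.1% of calls were higher in tumors, against 42.8%. The arrays lie on 2 slides (8 and 5), each scanned on its own day; both control normal arrays are on slide 2, which also holds 1 control tumor, 1 microRNA normal and 1 microRNA tumor array. Control normal array 2 and control tumor 3 carry Xist signal, unlike the other 11 arrays. Markers of colorectal epithelium (9 genes) averaged between 5.42 and 7.29 on every array, and each was well above background on at least 1 array of every group. Their means were 6.73 to 7 in control normal tissue and 5.42 to 6.74 in control tumors. Over both groups 5 of the 9 were called lower in tumors and 0 higher, beside 19.7% and 11.7% of all genes. In control mice alone 0 of the 9 were called, beside 19.1% of all genes. In microRNA mice alone it was 0 of 9, beside 3.11%. Cdx2 was lower in tumors over both groups (-3.12, adjusted p = 0.0317, limma). In control mice it was not called (-2.75, adjusted p = 0.146), and control tumors ran from -1.23 to 5.57. Apc differed by 0.00 between control tumors and control normal tissue (adjusted p = 0.995, limma), but the place of its probe relative to the deleted part was not examined.

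In control mice Cfi, the factor I gene, was higher in tumors than in normal tissue, and it was the only 1 of the 9 members to pass the test. Its level was -5.92 and -6.40 on the control normal arrays, where it was not well above background. In the 7 control tumors it ran from 0.66 to 3.27 with a median of 2.55, well above background on each. The groups were far apart, and every tumor exceeded both normal arrays. The fitted difference was 8.37 on the log2 scale (SE 0.65, 95% confidence interval 6.95 to 9.78, adjusted p = 3.63e-05, limma). Since the normal signal has only a bound, the fold is given as a lower limit: the tumors were at least 91.3-fold higher, which sets the tumor mean against the dimmest signal called well above background on each normal array. This limit holds for the processed signal only, and normexp background correction gave a smaller log2 difference of 4.34. Of the 9 members, 1 was called higher beside 8.18% of all genes, and 0 were called lower beside 10.9% (19.1% of all genes were called in either direction). The members, Cfi among them, were chosen with earlier results of these data known. The tumor calls of Cfi here and below are thus no independent test. In bulk tissue, fewer cells of a type and less RNA per cell cannot be told apart.

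The Cfi call in control mice stood in 26 of 26 alternative analyses, with differences of 4.34 to 9.42. With the slide as a block the difference was 9.19 (adjusted p = 0.000248), and within slide 2, which holds 1 of these tumors, it was 8.72 (adjusted p = 0.0105, limma). With normexp background correction it was 4.34 (adjusted p = 0.000726), the smallest of these values. Hepatocyte markers, which would accompany liver RNA, averaged -2.50 to -2.40 in control normal tissue and -3.12 to -2.41 in control tumors over 7 tested genes, of which 2 were not well above background on any control tumor; 1 of the 7 was called higher and 2 lower. Smooth muscle markers averaged 6.12 to 6.53 in control normal tissue and 1.5 to 4.54 in control tumors, with 6 of 6 called lower. Fibroblast markers averaged 3.04 to 3.09 and 2.99 to 4.16, with 4 of 8 called higher and 0 lower. Of all genes, 8.18% were called higher and 10.9% lower in this comparison. The part of these cell types in the Cfi difference was not tested.

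**Figure D1:**
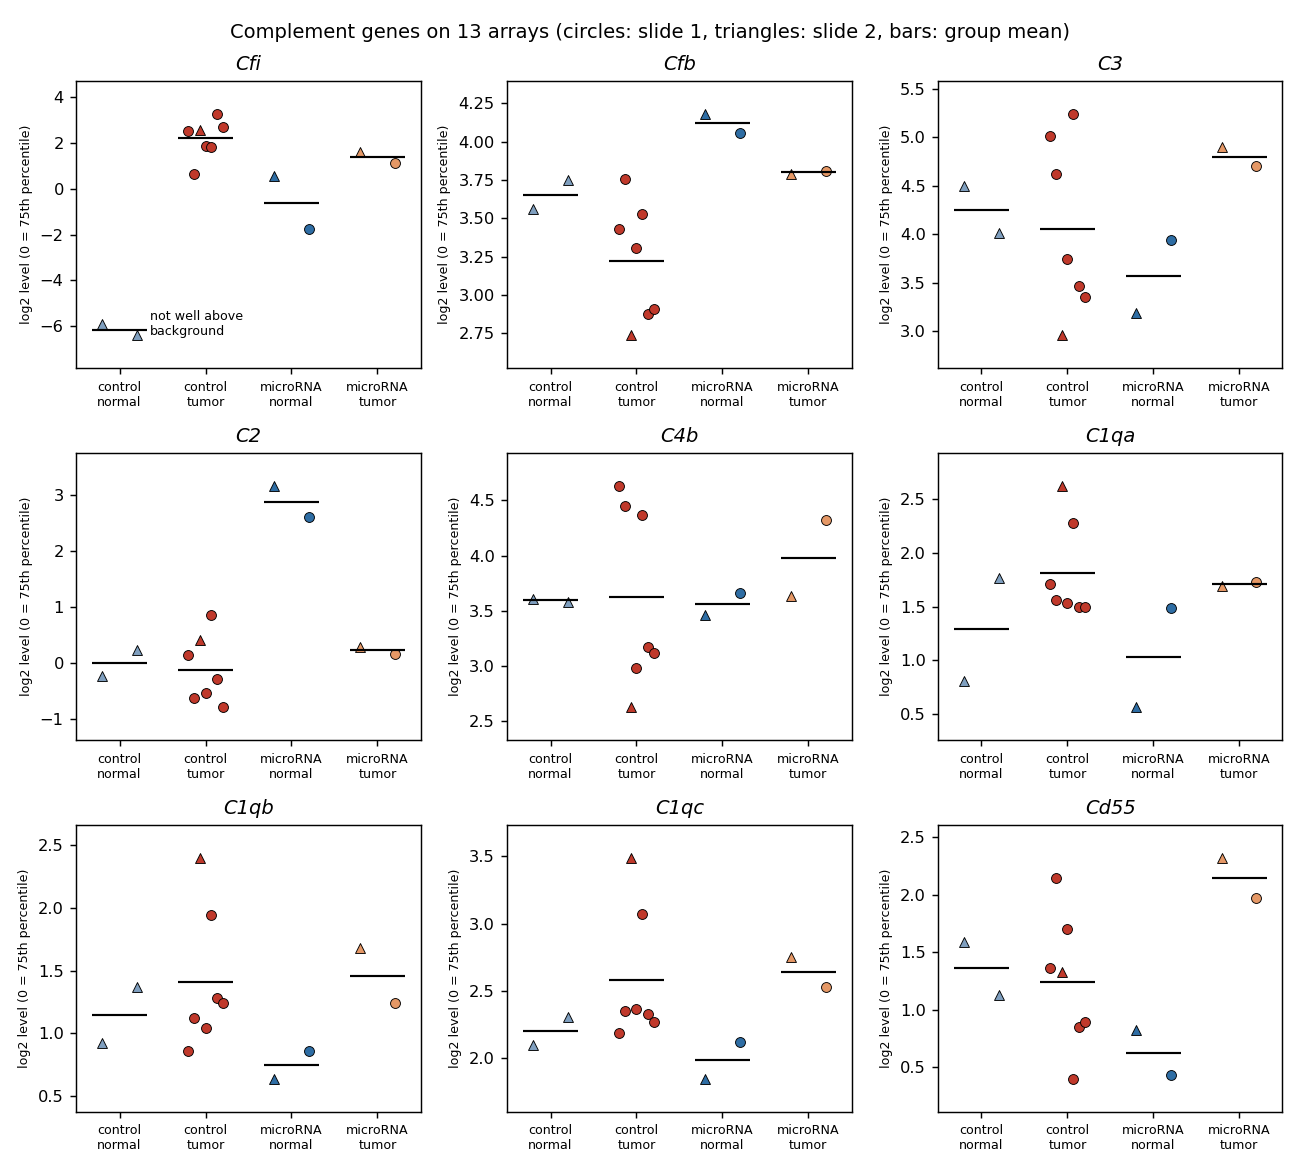
Log2 level of each of the 9 complement genes (y axis, 0 is the array's 75th percentile) on 13 arrays in 4 groups (x axis); circles are arrays of slide 1, triangles of slide 2, and bars are group means. Cfi lies at -6.40 to -5.92 in control normal tissue and at 0.66 to 3.27 in control tumors, and C2 lies at 2.61 to 3.17 only on the microRNA normal arrays.

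In microRNA mice the Cfi difference between tumor and normal tissue was smaller and did not pass the test. The microRNA normal arrays were at 0.57 and -1.78, and the microRNA tumors at 1.62 and 1.13, all well above background. Both tumors exceeded both normal arrays, but the normal arrays lay far apart. The difference was 1.98 (SE 0.81, 95% confidence interval 0.21 to 3.74, adjusted p = 0.18, limma). It was called in 1 of 26 alternatives, without scaling between arrays (2.88, adjusted p = 0.0313). Within the slides it was 2.91 on slide 1 (adjusted p = 0.426) and 1.04 on slide 2 (adjusted p = 0.247).

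Across the groups, Cfi ran from control normal tissue (mean -6.16 ± 0.34, SD, n = 2) through microRNA normal tissue (-0.60 ± 1.66, n = 2) and microRNA tumors (1.37 ± 0.34, n = 2) to control tumors (2.20 ± 0.84, n = 7). MicroRNA and control tumors overlapped and differed by -0.83 (95% confidence interval -2.25 to 0.58, adjusted p = 1, limma). Neither that pair nor microRNA normal tissue and microRNA tumors passed the test, though in the second pair the groups did not overlap. Normal tissue of microRNA mice exceeded that of control mice by 5.56 (SE 0.81, adjusted p = 0.00729), at least 13-fold with the same lower limit. On slide 2 alone this difference was 6.74 (adjusted p = 0.0247), and with the slide as a block it was 6.04 (adjusted p = 0.00609). The call was lost with normexp correction (1.95, adjusted p = 0.892), in a fit to these 4 arrays alone (adjusted p = 0.103), without either control normal array (adjusted p = 0.0563 and 0.0657), without microRNA normal array 1 (4.38, adjusted p = 0.0815) and without the arrays with Xist signal (adjusted p = 0.0871).

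C2, the protease that joins C4b in the classical convertase, was high in normal tissue of microRNA mice and at a lower level in the other 3 groups. The microRNA normal arrays were at 3.17 and 2.61, and the control normal arrays at -0.23 and 0.23. Control tumors ran from -0.79 to 0.85 with a median of -0.29, and microRNA tumors were at 0.29 and 0.15. Only the microRNA normal arrays stood apart, above all 11 others, and every array was well above background.

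C2 was higher in microRNA than in control normal tissue by 2.89 (SE 0.50, adjusted p = 0.0218, limma). Cfi and C2 were thus 2 of 9 members called higher in this comparison, beside 0.287% of all genes, and 0 were called lower beside 0.247% (0.534% in either direction). C2 was lower in microRNA tumors than in microRNA normal tissue, with a difference of -2.67 (SE 0.50, adjusted p = 0.0167, limma). It was the 1 member called there, beside 1.72% of all genes called lower, 1.39% called higher and 3.11% in either direction. Both comparisons use the same microRNA normal arrays and are not independent. In control mice C2 differed between tumor and normal tissue by -0.12 (95% confidence interval -0.99 to 0.75, adjusted p = 0.838).

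The C2 fall within microRNA mice was -2.45 on slide 1 (adjusted p = 0.347) and -2.88 on slide 2 (adjusted p = 0.066), and -2.67 with the slide as a block (adjusted p = 0.0133, limma). It was lost without any 1 of the 4 microRNA arrays (adjusted p = 0.129 and 0.0602 without normal arrays 1 and 2, and 0.119 and 0.0791 without tumors 1 and 2). The C2 rise in normal tissue was 3.12 with the slide as a block (adjusted p = 0.0218) and 3.17 on slide 2 alone (adjusted p = 0.139). It was lost without either microRNA normal array (adjusted p = 0.221 and 0.0823), without either control normal array (adjusted p = 0.268 and 0.0816), without the arrays with Xist signal (0.0764), in a fit to these 4 arrays alone (0.0804) and with the replicate number as a block (0.0626).

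Genes of the small intestine moved with Cfi and C2 between the normal tissues. Over 13 tested genes of that kind, the mean level was 2.12 to 3.06 on the microRNA normal arrays, -1.67 to -0.83 on the control normal arrays, -4.58 to -1.5 in control tumors and -3.68 to -3.41 in microRNA tumors. Of the 13, 4 rose and 0 fell in microRNA against control normal tissue, beside 0.287% and 0.247% of all genes. Among the 4 were Apoa1 (at least 194-fold, adjusted p = 0.00027, limma) and Mttp (4.90, adjusted p = 0.000346), which serve lipid absorption. Against normal tissue, 9 of the 13 were lower in microRNA tumors (beside 1.72% of all genes) and 3 in control tumors (10.9%). Over both groups 12 were lower (19.7%), and 4 were lower for the difference between the tumor effects (0.181%). In these comparisons 0 were higher. Apoa1 was one of 2 of the 13 that were not well above background on either control normal array. Hox genes of the distal colon (6 tested) averaged -3.25 to -0.79 on the microRNA normal arrays and -0.35 to 0.33 on the control normal arrays, with 0 of 6 called. They spread widely among control tumors, at -4.74 to 1.05, and were at -1.95 to -0.57 in microRNA tumors. Between control tumors and control normal tissue 0 of 6 were called. Interferon-stimulated genes (10 tested) averaged 1.43 to 1.61 on the microRNA normal arrays and 0.12 to 0.92 on the control normal arrays, also with 0 of 10 called. In microRNA mice 3 of the 10 were called lower in tumors than in normal tissue and 0 higher, beside 1.72% and 1.39% of all genes. The microRNA tumors had means of 0.02 to 0.09. Over both groups of mice 5 of the 10 were lower, beside 19.7% of all genes. The part of these differences in the Cfi and C2 results was not tested.

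**Figure D2:**
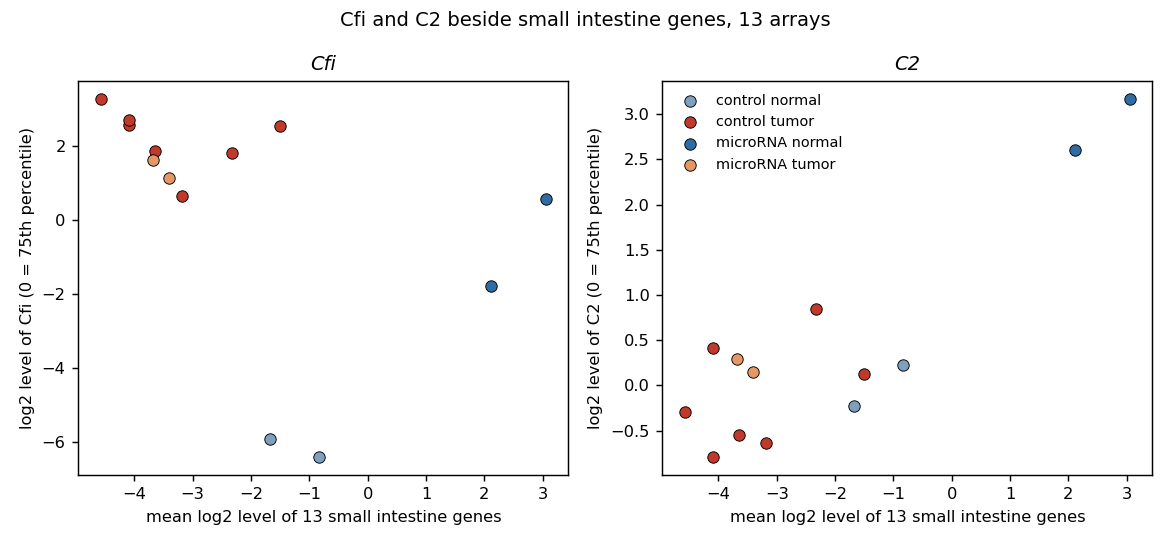
Log2 level of Cfi (left) and C2 (right) on the y axis against the mean log2 level of 13 small intestine genes on the x axis, 1 point per array and 1 colour per group, 13 arrays. The microRNA normal arrays lie alone on the right, at means of 2.12 and 3.06, and hold the highest C2 levels, while the highest Cfi levels lie in control tumors.

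The tumor effect on Cfi was smaller in microRNA than in control mice, with a difference of -6.39 (SE 1.04, adjusted p = 0.0271, limma). Cfi was the 1 member called for this difference, beside 0.181% of all genes called lower, 0.102% called higher and 0.283% in either direction. The value rests on a control normal level that is only a bound. With the slide as a block it was -7.21 (adjusted p = 0.0229), but within slide 2 it was -7.68 and missed the threshold (adjusted p = 0.0891), as it did with normexp correction (-2.75, adjusted p = 0.768), with the replicate number as a block (-5.79, adjusted p = 0.139) and without the arrays with Xist signal (-6.09, adjusted p = 0.131). Leaving out 1 array at a time kept the call in 6 of 13 cases, with values of -7.57 to -5.21. It was lost without microRNA normal array 1, either microRNA tumor, either control normal array, or control tumor 4 or 7 (adjusted p up to 0.139). For C2 the same difference was -2.54 and did not pass (adjusted p = 0.26).

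Over both groups of mice together, tumors exceeded normal tissue for Cfi by 5.87 (SE 1.00, adjusted p = 0.00214, limma). Cfi was the 1 of 9 members called there, higher, beside 11.7% of all genes called higher, 19.7% called lower and 31.4% in either direction. It was not called on slide 2 alone (5.43, adjusted p = 0.107). The median difference of the 9 members was 0.44, against -0.11 over all genes; in control mice alone it was 0.03, against -0.09. Between the tumors of microRNA and control mice 0 of 9 members were called with limma, beside 0.00393% of all genes; at an unadjusted p under 0.05, 1 member passed, Cd55, of 535 genes.

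**Figure D3:**
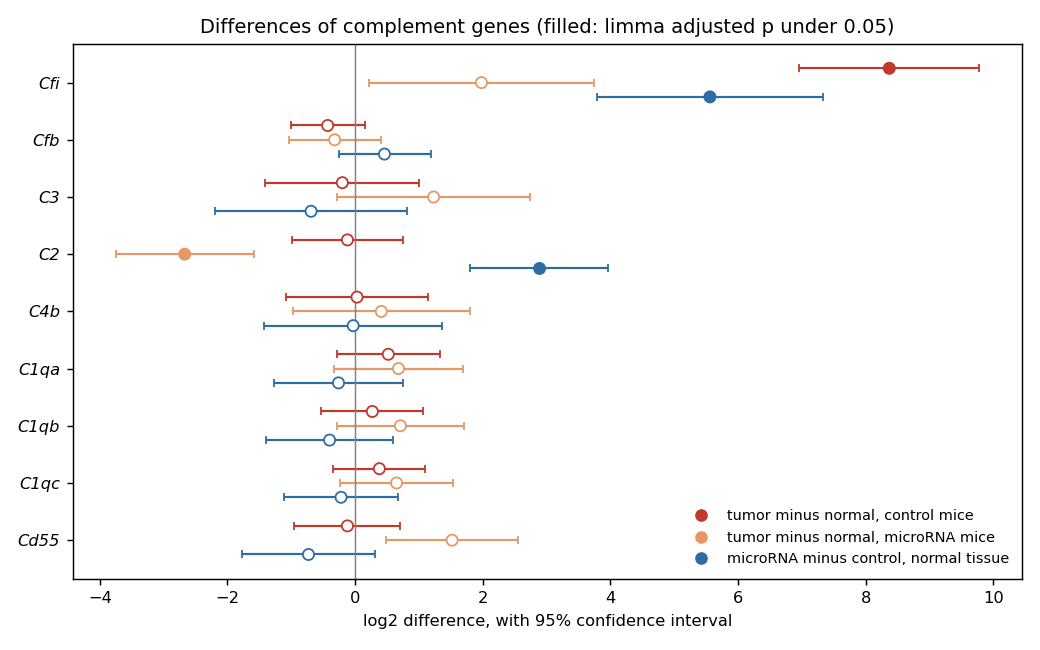
Log2 differences (x axis) of the 9 complement genes (y axis) with their 95% confidence intervals from limma, for tumor minus normal tissue in control mice, the same in microRNA mice, and microRNA minus control mice in normal tissue; filled points have an adjusted p under 0.05. Cfi in control mice lies at 8.37, and C2 lies at -2.67 within microRNA mice and at 2.89 between the normal tissues.

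The alternative pathway components C3 and Cfb were well above background on all 13 arrays, and neither was called in any of the 6 comparisons of the main analysis. Over both groups of mice the C3 difference was 0.36 (adjusted p = 0.573, limma). Without scaling between arrays it was 1.35 and was called (adjusted p = 0.0252), as 1 of 7 members called there, where the median gene stood at 0.89. C3, the central component that all pathways cleave, was at 4.50 and 4.01 in control normal tissue and ran from 2.96 to 5.24 in control tumors, median 3.74. It was at 3.19 and 3.94 in microRNA normal tissue and at 4.90 and 4.70 in microRNA tumors. The control tumors thus lay on both sides of the control normal arrays, while both microRNA tumors exceeded both microRNA normal arrays. The tumor difference was -0.20 in control mice (95% confidence interval -1.41 to 1.00) and 1.23 in microRNA mice (-0.28 to 2.74, adjusted p = 0.313, limma). The dimmer C3 probe gave -0.06 and 1.19 for the same differences. The control value was -1.30 on slide 2 alone (adjusted p = 0.105).

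Cfb, the protease precursor of the alternative convertase, was at 3.56 and 3.75 in control normal tissue and at 4.18 and 4.06 in microRNA normal tissue. It ran from 2.74 to 3.76 in control tumors, median 3.31, and was at 3.79 and 3.81 in microRNA tumors. Both microRNA tumors lay just above all 7 control tumors, with a difference of 0.58 that did not pass (95% confidence interval 0.00 to 1.16, adjusted p = 1, limma). The tumor difference was -0.43 in control mice (adjusted p = 0.251) and -0.32 in microRNA mice (adjusted p = 0.61).

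In the classical pathway, the C4b probe, which also reads C4a, was even across normal tissue and spread widely among tumors. It was at 3.61 and 3.58 in control normal tissue and at 3.46 and 3.66 in microRNA normal tissue. It ran from 2.63 to 4.63 in control tumors, median 3.17, and was at 3.63 and 4.32 in microRNA tumors. Control tumors 1, 2 and 5 were high (4.37 to 4.63) and the other 4 low (2.63 to 3.17), on both sides of normal tissue. The tumor difference was 0.03 in control mice (95% confidence interval -1.09 to 1.14) and 0.41 in microRNA mice (-0.98 to 1.80), neither called by limma.

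The C1q genes had like profiles. C1qa was at 0.81 and 1.77 in control normal tissue, ran from 1.5 to 2.62 in control tumors (median 1.56), and was at 0.57 and 1.49 in microRNA normal tissue and 1.69 and 1.73 in microRNA tumors. C1qb was at 0.92 and 1.37 in control normal tissue, ran from 0.86 to 2.40 in control tumors (median 1.24), and was at 0.64 and 0.86 in microRNA normal tissue and 1.68 and 1.24 in microRNA tumors. C1qc was at 2.10 and 2.31 in control normal tissue, ran from 2.19 to 3.49 in control tumors (median 2.35), and was at 1.85 and 2.12 in microRNA normal tissue and 2.75 and 2.53 in microRNA tumors. Control tumors 3 and 5 were the highest for each of these genes, and the other 5 lay in or near the range of normal tissue. In microRNA mice both tumors exceeded both normal arrays for all 3 genes.

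None of the C1q genes passed the test in any of the 6 comparisons. In control mice the tumor differences of C1qa, C1qb and C1qc were 0.52, 0.27 and 0.38 (adjusted p = 0.314, 0.615 and 0.416, limma), and in microRNA mice 0.68, 0.71 and 0.65 (adjusted p = 0.404, 0.378 and 0.365). Over both groups of mice, C1qc was called on slide 2 alone (1.12, adjusted p = 0.0361) and with the slide as a block (0.72, adjusted p = 0.0455), and C1qb on slide 2 alone (1.16, adjusted p = 0.0408). With normexp correction C1qa (0.69, adjusted p = 0.0365) and C1qc (0.60, adjusted p = 0.0467) were called over both groups, and without scaling all 3 were (1.58, 1.43 and 1.48 for C1qa, C1qb and C1qc). Without scaling between arrays all 3 were called in control mice, at 1.58, 1.32 and 1.43, where the median gene stood at 0.96. Macrophage and monocyte markers (12 tested) averaged 0.10 to 0.24 in control normal tissue and 0.31 to 1.09 in control tumors. Those in microRNA mice averaged -0.06 to 0.08 in normal tissue and 0.58 to 0.79 in tumors, and each of the 12 was well above background on at least 1 array of every group. Of the 12, 2 rose in control tumors and 0 fell, beside 8.18% and 10.9% of all genes. Cd14 was among those that rose (1.5, adjusted p = 0.00709, limma). The part of macrophage RNA in the C1q levels was not tested.

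Cd55, the decay accelerating factor, was at 1.59 and 1.13 in control normal tissue and ran from 0.40 to 2.14 in control tumors, median 1.33. It was at 0.82 and 0.43 in microRNA normal tissue and at 2.32 and 1.97 in microRNA tumors. Control tumors surrounded the control normal arrays, while the microRNA tumors lay above both microRNA normal arrays. The difference was 1.52 in microRNA mice (SE 0.48, 95% confidence interval 0.48 to 2.56), which did not pass the test (adjusted p = 0.1, limma), and -0.12 in control mice (adjusted p = 0.835). The microRNA value was called in 3 of 26 alternatives: without scaling between arrays (2.42, adjusted p = 0.00996), with normexp correction (1.5, adjusted p = 0.0492) and with the number in the file names as a random block (adjusted p = 0.044). Between the tumors Cd55 differed by 0.91 (95% confidence interval 0.07 to 1.74, adjusted p = 1).

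Over all 7 control tumors the members varied in sets, which were less distinct without control tumor 3. As a description over these arrays, which share 2 slides, Pearson's r was 0.97 for C1qa with C1qc, 0.98 for C1qb with C1qc and 0.92 for C1qa with C1qb. It was 0.95 for C3 with C4b, 0.87 for C3 with Cfb and 0.85 for Cfb with C4b. Between these sets the values moved with control tumor 3, the one on slide 2, and most for C1qa. Over all 7 tumors C1qa gave -0.03 with C3, -0.13 with C4b and -0.21 with Cfb, and over the other 6 it gave 0.76, 0.55 and 0.44. C1qb gave -0.28, -0.37 and -0.41 with the same genes over all 7, and stayed low at 0.28, 0.1 and 0.07 over the other 6. For C1qc the values were -0.18, -0.29 and -0.28, and then 0.52, 0.28 and 0.34. C2 followed C1qa (0.83), and Cfi ran against Cfb (-0.82). On slide 1 alone, r was 0.91 for C1qa with C1qc, 0.93 for C3 with C4b, 0.93 for C2 with C1qa and -0.88 for Cfi with Cfb. There it was 0.79 for C1qa with C1qb and for Cfb with C4b, near the 0.76 of C1qa with C3 and of C3 with C2.

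Of 13850 named genes ranked by r over the 7 control tumors, those most like Cfi were Crybg1 (0.98), Mief1 (0.98), Jrk (0.96), Dgke (0.96) and Ric1 (0.96). For C3 they were Ntn3, Phyhd1, Espn, Tmem106a and Pcsk5, each at 0.99. For C1qa they were Ctsb (0.99), a lysosomal protease gene, followed by Med11 (0.98), Tmx2 (0.98), Higd1b (0.97) and Fxyd5 (0.97). With 7 arrays and so many genes, values of this size are a ranking only.

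The rest of the complement system was read from lists of 45 other genes on the array, of which 35 were tested and 10 were too dim. Over both groups of mice 8 of 35 rose and 7 fell in tumors (22.9% and 20%, beside 11.7% and 19.7% of all genes); in control mice alone 4 rose and 6 fell (11.4% and 17.1%, beside 8.18% and 10.9%). The control counts rest on both control normal arrays: without array 1, 0 rose and 0 fell, and without array 2, 0 rose and 1 fell, which was C7 (adjusted p = 0.0211, limma). With the replicate block 0 rose and 1 fell, and without the arrays with Xist signal 0 rose and 2 fell, so the calls in control mice named below are open to the same loss. In microRNA mice 1 rose and 1 fell (beside 1.39% and 1.72% of all genes). That became 0 and 0 on slide 1 alone or without microRNA normal array 2 or either microRNA tumor. It became 5 and 3 with normexp correction, 6 and 1 with the slide as a block, 8 and 3 with the file-name number as a block, and 13 and 1 without scaling. Of the 35, 0 were called between the treatments in tumors, in normal tissue or for the difference between the tumor effects. Their median difference over both groups was -0.15, against -0.11 over all genes. These counts hold for the scaled levels; without scaling, 19 of 35 rose and 4 fell over both groups.

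Receptors were among the genes that rose. The anaphylatoxin receptors C3ar1 and C5ar1 rose in control tumors by 1.53 (SE 0.32, adjusted p = 0.0124, limma) and 1.52 (SE 0.35, adjusted p = 0.0159). C3ar1 was at -4.16 to -3.86 on the control normal arrays, where 1 of 2 was well above background, and at -3.22 to -1.80 in control tumors. C5ar1 was at -3.90 to -3.39 and -2.78 to -1.47. The groups did not overlap, but both calls were lost with normexp correction (0.17 and 0.38). Itgax, the alpha chain of complement receptor 4, rose by 0.86 in control tumors (adjusted p = 0.0279), and Cd93 by 1.01 in microRNA tumors (adjusted p = 0.0448). The Cd93 call did not stand without microRNA normal array 2 or either microRNA tumor. It also did not stand without either control normal array or control tumor 2 or 7. Cr2, the receptor of B cells and follicular dendritic cells, fell by 4.67 in control tumors (adjusted p = 0.0205), from 0.63 to 1.71 in normal tissue to -4.77 to 0.40 in tumors. In microRNA mice Cr2 was at -2.26 to -1.68 in normal tissue and at -2.89 and -0.15 in tumors, a difference of 0.45 (adjusted p = 0.886). Over both groups it was not called (-2.67, adjusted p = 0.082), and the tumor effects differed by 5.11 (adjusted p = 0.689).

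Among regulators, Clu, which encodes clusterin, an inhibitor of the membrane attack complex, rose by 2.13 in tumors over both groups (SE 0.42, adjusted p = 0.00421, limma). Its levels were 4.43 and 5.02 in control normal tissue and 5.90 to 7.62 in control tumors. Cd59a, a membrane inhibitor of pore formation, fell by 1.74 in control tumors (adjusted p = 0.0413), and by 1.12 with the slide as a block (adjusted p = 0.241). Susd4 fell by 1.10 over both groups (adjusted p = 0.018). The other 8 tested regulators, C4bp among them, were not called in control mice or over both groups.

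In the alternative and terminal pathways 4 of 6 tested genes fell over both groups and 0 rose, beside 19.7% and 11.7% of all genes. Cfd, the factor D protease that activates factor B and is abundant in fat, was lower in control tumors by a fitted 8.13 (SE 1.39, adjusted p = 0.00509, limma), at 2.76 to 3.96 in normal tissue and -6.98 to 0.33 in tumors. Only 1 of the 7 tumors was well above background, so the fitted value is no measured fold. In microRNA mice it was at 3.88 to 4.59 in normal tissue and well above background in neither tumor, at least 540-fold lower (adjusted p = 0.0143). The Cfd call in microRNA mice did not stand without any 1 of the 4 microRNA arrays. Adipocyte markers (5 tested) moved alongside, with means of 0.50 to 1.39 in control normal tissue, -4.36 to -1.36 in control tumors, 0.89 to 1.56 in microRNA normal tissue and -3.82 to -3.72 in microRNA tumors; their part in the Cfd fall was not tested. Hc, which encodes C5, fell by 2.02 over both groups (adjusted p = 0.00211), C7 by 1.66 (adjusted p = 0.00361) and C8g by 0.65 (adjusted p = 0.0322). C7 was well above background on 1 of 7 control tumors, and C8g stood at 0.35 without scaling.

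In the classical and lectin pathways the C1 proteases C1rb and C1s1 rose over both groups by 1.07 (adjusted p = 0.00834, limma) and 0.80 (adjusted p = 0.0321), and the scavenger receptor collectin Colec12 by 0.87 (adjusted p = 0.0423). The soluble collectin Colec10 fell by 3.40 (adjusted p = 0.00438), and by 4.12 in control mice (adjusted p = 0.011). Mbl1, a mannose-binding lectin, fell by 1.48 (adjusted p = 0.0295) but was well above background on 1 of 7 control tumors and on neither microRNA normal array. C1rb did not pass with normexp correction (0.30, adjusted p = 0.136), nor did Colec12 (0.15, adjusted p = 0.514). Probes of Itgam, the alpha chain of complement receptor 3, disagreed in sign (-0.76, 1.15 and -0.32 in control mice), so no direction is given for it.

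**Figure D4:**
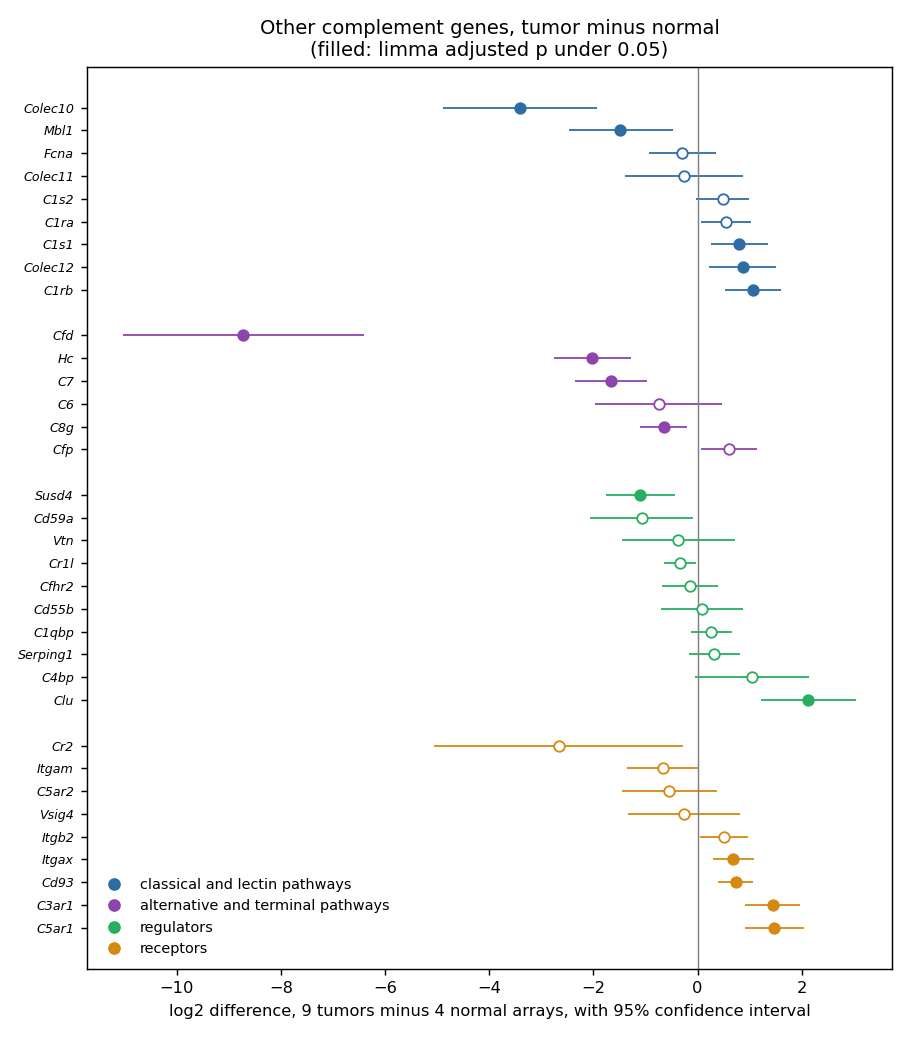
Log2 difference of 9 tumors against 4 normal arrays (x axis, 95% confidence intervals from limma, treatment in the model) for 34 of the 35 other complement genes tested (y axis) grouped by role; filled points have an adjusted p under 0.05. Clu lies highest at 2.13. Cfd lies lowest at -8.72, a fitted value set against 9 tumors of which 1 was well above background.

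Promoter windows of 300 bases (250 before to 50 after the start, RefSeq, GRCm38.p6) were held for 4 of the 9 members: C3, C1qb, C1qc and Cd55. A kappa B pattern, GGG and CC with any 5 bases between them on either strand, matched all 4, and it matched 50.8% of all 32851 windows. A STAT pattern (TTCNNNGAA), an interferon response pattern (GAAA and GAAA with any 2 bases between) and an AP-1 pattern (TGANTCA) matched 0 of 4, and 8.3%, 3.44% and 7.81% of all windows. A match is a stretch of letters and not a site.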

How the data were processed

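Total RNA (35 ng per array, per the labels) was Cy3-labelled and put on a 1-colour mouse array. According to their headers, the files come from Feature Extraction 10.7.3.1. The authors deposited intensity values, linear, with background subtracted within the array and no scaling between arrays. The same intensity values made up the deposited series-wide table (largest relative difference 0). Control spots (3671) were left out, leaving 59305 spots of 55681 probes; spots marked as outliers were set to missing, and spots of a probe were averaged. The log2 signal was reduced by log2 of the array's 75th percentile, taken over all non-control spots before outliers were set to missing. A probe was kept if well above background on at least 2 of 13 arrays (35191 probes), and a gene was read from its probe with the highest mean, which gave 25468 genes (16653 with an official symbol). The number of arrays limits the precision.

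Differences were tested with limma 3.58.1 (lmFit, eBayes) in R 4.3.3 (the data.table package was at 1.17.8) as 6 comparisons in fits to the 13 arrays, after testing on simulated data. Lower limits on folds set the bright group's mean against the dimmest signal well above background on each dim array. They hold for the processed signal and not for other background corrections. All 9 members are named; from each list, called genes and those of smallest p in control mice could be named. The members, gene lists and tests were chosen with earlier results of these data known, and the small intestine and Hox lists were added after seeing the data. Single values of some listed genes are not reported here. Itgam was named after its values were seen. Alternatives were normexp correction (offset 50), quantile or no scaling, no filter, the mean of a gene's probes, slide, replicate number or file-name number as a block, each slide alone, only the groups compared, eBayes with trend, each array left out, and without the arrays with Xist signal; the fit without both microRNA normal arrays was added after seeing the data. Plots used matplotlib 3.10.9 in Python 3.11.15.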

Additional observations from a re-analysis of the deposited data

Results flagged for a closer look

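The tumor effect on Cfi differed between the mice by -6.39 on the log2 scale (SE 1.04, adjusted p = 0.0271, limma, as an interaction of tissue and treatment): 8.37 in control mice and 1.98 in microRNA mice. Over 24 alternatives the difference ran from -7.68 to -2.75 with adjusted p from 0.0061 to 0.768, and it was called in 13 of them. The level in control normal tissue, on which it rests, was not well above background on either array.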

How the results depend on the processing

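Of 171 values of a member that passed the test in the main analysis or an alternative, 0 changed sign; of 1206 that passed in neither, 67 did. Cfi in control mice was called in 26 of 26 alternatives, Cfi over both groups in 24 of 25, C2 within microRNA mice in 20 of 26, and Cfi and C2 between normal tissues in 19 and 17 of 25. Except for Cfi over both groups, these counts include fits that left out only arrays outside the compared groups. Such fits leave the difference itself unchanged. With each array left out in turn, both C2 calls stood in 9 of 13 fits, all of this kind. Neither C2 call stood in a fit that left out an array of the compared groups. The cause of the changes below was not tested.

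Counts of called genes are given for tumor against normal tissue over both groups (A, 7991), in control mice (B, 4865) and in microRNA mice (C, 792), for microRNA against control tumors (D, 1) and normal tissue (E, 136), and for the differing tumor effects (F, 72). With normexp correction A to F were 12180, 8620, 1972, 0, 77 and 38. Without scaling A to D were 15311, 12587, 3076 and 0. Without a filter A, C and D were 13006, 1558 and 2. With the slide as a block B and C were 2327 and 1636. Slide 1 alone gave 10 for C and 2 for D. Slide 2 alone gave 4912, 2714, 290, 0, 42 and 16 for A to F. The file-name number as a block gave 2307 for C and 0 for D. Only the groups compared gave 0 for D and 55 for E. Without the arrays with Xist signal A, B and D were 4138, 1166 and 0. D was also 0 with eBayes with trend and without both microRNA normal arrays. Leaving out each array gave 3839 to 8663, 426 to 6720, 78 to 1162, 0 to 1, 52 to 156 and 18 to 92 for A to F.

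The share of calls that were higher in tumors over both groups was 37.3%, and 21.8%, 51.6% and 95.5% with normexp correction, quantile normalization and no scaling. In microRNA mice it was 44.6%, and 22.1%, 62.7% and 94.6%.

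Members called (1, 1, 1, 0, 2 and 1 of 9) became 3 over both groups with normexp correction, 7 without scaling, and 2 with the slide as a block or on slide 2 alone. In control mice they became 4 without scaling. In microRNA mice they became 2 with normexp correction or the file-name number, 3 without scaling, and 0 on either slide alone. In normal tissue they became 1 with normexp correction, on slide 2 or with the replicate block, and 0 in the compared groups alone or without the arrays with Xist signal. For the difference they became 0 with normexp correction, on slide 2, with the replicate block or without the arrays with Xist signal. Leaving out each array gave 1 to 2, 1 to 1, 0 to 1, 0 to 0, 0 to 2 and 0 to 1.

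Replicate numbers are shared by the groups, but no label ties a number to an animal. Deviations of same-numbered arrays correlated between -0.19 and 0.42 over the 6 pairs of groups, with 0.42 between microRNA normal tissue and microRNA tumors. The main analysis did not treat arrays as paired, since no label gives a pairing. The 0.42 does not exclude a pairing within the microRNA mice. Control normal 2 and control tumor 3 are the only arrays with Xist signal. The file names carry another number, which the labels do not tie to an animal: microRNA normal and tumor arrays share it by replicate, control normal 2 shares it with control tumor 3, control tumors 1 and 2 share one, and 4 to 7 another. Arrays that share this number may come from the same mouse, so the control tumors may not be independent. As a random block the file-name number gave a correlation of 0.35 (A) and 0.3 (B). With the replicate block, the counts of called genes were 2833, 449, 1222, 0, 63 and 12, and Cfi in control mice was 7.77 (adjusted p = 0.00967, limma).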

Other observations

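Genes of the acute phase and of inflammation, several of which are known to rise with complement components in the liver, were measured beside the members. In control tumors 8 of 12 such genes rose and 0 fell (limma, beside 8.18% and 10.9% of all genes). Lcn2, an iron-sequestering defence protein, rose by 5.33 (adjusted p = 0.000264), and the cytokine Il1b by 4.29 (adjusted p = 3.63e-05). The cytokines Tnf and Il6 were well above background on neither control normal array and on all 7 control tumors, at least 14.2-fold (adjusted p = 3.92e-05) and 7.22-fold higher (adjusted p = 0.00406). The list averaged 0.32 to 0.49 on the control normal arrays and 2.45 to 3.1 in control tumors. Saa1 and Saa2 differed by -0.93 (adjusted p = 0.272) and -1.09 (adjusted p = 0.223). Neutrophil markers averaged -1.44 to -1.09 and 1.52 to 3.15, with 5 of 6 called higher; 1 of the 6 was not well above background on either control normal array. C3, Cfb and C4b, given above, were not called in the same comparison.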
